A study of Mus musculus with 18 samples.

Results

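The genes described here encode the proteins of the cytosolic ribosome. They were taken from the table by name: symbols made of Rpl (large subunit) or Rps (small subunit) and a number with an optional letter or l, plus Rpsa, Rplp0, Rplp1 and Rplp2. Kinases of the Rps6k family and pseudogenes were left out. The rule found 81 of 18349 genes, of which 50 belong to the large subunit and 31 to the small one. Genes of ribosomal proteins with other names (Fau and Rps3a1 among them) and the paralogs Rpl22l1 and Rpl7l1 fall outside the rule.

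Whole colon of male C57BL/6 mice, rinsed and snap-frozen, was measured by bulk RNA sequencing in 18 libraries of 5 groups. COM (n = 4), KO (n = 4) and WT (n = 4) are mice that had 2.5% dextran sulfate sodium (DSS), which damages the lining of the colon, in their water for 7 days and were then gavaged for 5 weeks with Lactobacillus plantarum ZJ316-COM, ZJ316-KO or ZJ316. The group DSS (n = 3) had the same DSS course, and the protocol's DSS arm without bacteria received PBS by gavage for 5 weeks. Control mice (n = 3) drank water. WT, KO and COM name bacterial strains; what the abbreviations KO and COM mean is not in the labels, and the mice of all groups carry the genotype label WT. Nothing in the labels ties a library to a single animal, and p-values therefore measure the spread between these samples, which may be technical. Values are FPKM, fragments counted per kilobase and scaled for the size of each library, which allow levels of different genes to be compared per length. The number of reads is unknown.

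Ribosomal proteins assemble with ribosomal RNA in the nucleolus into a small subunit, which decodes the messenger, and a large subunit, which joins amino acids. Most are needed in equal numbers per ribosome, and their messengers begin with a run of pyrimidines, the terminal oligopyrimidine (TOP) motif, through which mTORC1 and Larp1 control their translation. In the colon, where crypt cells divide throughout life and plasma cells secrete antibody, ribosomal protein messengers are among the most abundant.

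The TOP motif could be looked for in the RefSeq sequences around annotated starts (GRCm38.p6), which were at hand for 61 of the 81 genes. A run of at least 8 C or T letters, on the sense strand between 25 bases before and 50 bases after the start, was present in 50 of 61 (82.0%) and in 8213 of 27025 genes of the whole table (30.4%). The letters CTTTCC, which can lie within such a run, occurred in the same window in 19 of 61 (31.1%) and in 4.09% of all genes. CCGGAAG, searched on both strands over the whole 300 bases, was found in 25 of 61 (41.0%) and in 9.93% of all genes. Where a gene had several annotated starts, a match at any of them counted. These matches describe letters and not sites in use. Windows of 30 bases are shown for the genes that the levels and comparisons below turn on, with the longest pyrimidine run near the start in capitals.
The following are the genes with the smallest p in a comparison between groups.
Rplp2, chr7:141447636-141447665, plus strand: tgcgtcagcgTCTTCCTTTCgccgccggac
Rpl38, chr11:114668568-114668597, plus strand: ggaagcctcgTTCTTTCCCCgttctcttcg
Rpl41, chr10:128549119-128549148, minus strand: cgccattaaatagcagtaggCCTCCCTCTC
Rpl35a, chr16:33056469-33056498, plus strand: ggggcttgCCTTCCTCTTTCCgccatcttg
Rplp0, chr5:115559467-115559496, plus strand: ggaccgcctggTTCTCCTataaaaggcaca
These are genes of the highest level.
Rps26, chr10:128626484-128626513, minus strand: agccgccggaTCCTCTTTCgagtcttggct
Rpl28, chr7:4792953-4792982, plus strand: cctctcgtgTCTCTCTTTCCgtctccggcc
Rps27, chr3:90213631-90213660, minus strand: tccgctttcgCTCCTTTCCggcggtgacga
These are the genes of lowest level above the filter.
Rps15a, chr7:118116143-118116172, minus strand: gcccggcccaCTCTCTTTCTgccatcttcc
Rps6, chr4:86857349-86857378, minus strand: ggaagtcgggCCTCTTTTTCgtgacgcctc
These are the genes least like the others across libraries.
Rpl36al, chr12:69184020-69184049, minus strand: gctctgttcgTCCCTTTCCTgttcggcgcg
Rps27l, chr9:66946054-66946083, plus strand: cccgcctccaCTCCTCTCCactcctccccg

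The run of Rplp2 was 10 letters long, that of Rpl35a 13 and that of Rplp0 7. The run of Rpl41 reaches the end of the RefSeq window and may be longer. Relative to the annotated start, the run began at 40 in Rpl41, 28 in Rpl36al, 24 in Rpl35a and 11 in Rplp0. It began at -22 in Rps27l, at -15 in Rps15a and between -5 and 3 in the other genes shown. A TOP motif begins the messenger, so a run away from the start need not be one. Genes of low level (Rps6, Rps15a) and of high level (Rps26, Rps27, Rpl28) carried runs of 9 to 11 letters, and so did Rpl36al and Rps27l.

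Most of these genes were expressed at high levels. Of the 81, 78 reached 1 FPKM in at least 3 libraries and were tested. The 3 others were Rpl39l, listed at 0 in every library, and Rpl3l and Rpl32l, with means of 0.0117 and 0.111 FPKM. Rpl3l and Rpl39l are known from striated muscle and testis. The 78 genes had a median of 813 FPKM, 55 averaged above 500 and 24 above 1000 FPKM, and 39 of the 100 genes of highest mean in the colon belonged to this set.

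The highest means were those of Rps26 (2137 FPKM), Rpl28 (1949), Rps27 (1751), Rpl10 (1715) and Rps12 (1711). Rps26 lies at the messenger exit of the small subunit, and Rpl10 joins the large subunit late, close to its catalytic centre. Tested genes below 100 FPKM were Rps20 (72.7), Rps15a (43.1) and Rps6 (32.6 FPKM). Rps6, the small-subunit protein phosphorylated by S6 kinases, lay at 21.4 to 38.1 FPKM, whereas the annotated pseudogene Rps6-ps4 lay at 867 to 1451 FPKM. Reads of a gene and of its near-identical copies may have been split by the authors' counting, so the level of Rps6, and of any of these genes with a processed pseudogene, is uncertain.

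**Figure D1:**
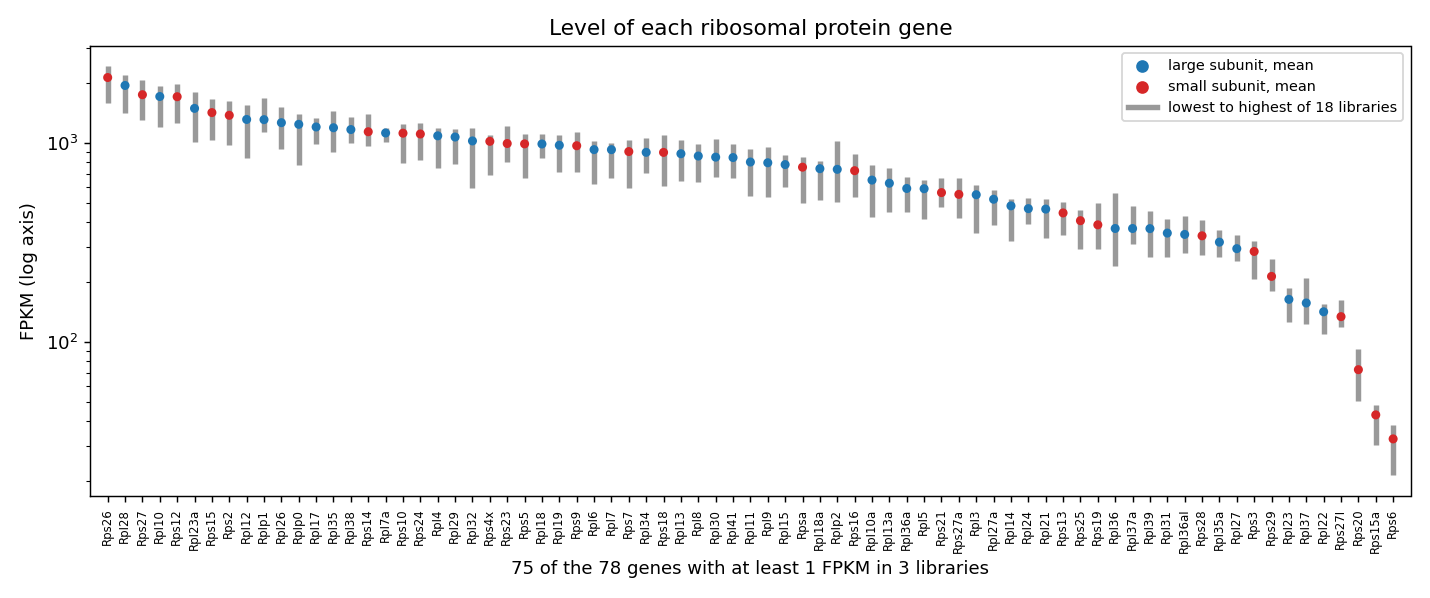
Mean FPKM of 75 of the 78 tested ribosomal protein genes (points; log axis) with the lowest to highest of 18 libraries (grey bars), large subunit in blue and small subunit in red. Rps26 has the highest mean at 2137 FPKM, and Rps20, Rps15a and Rps6 lie below 100 FPKM.

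Spread over libraries was described by the coefficient of variation. The median coefficient of variation over 18 libraries was 9.46% for the 78 genes and 13.2% for all 13263 genes tested. It ran from 4.85% for Rpl7a, a large-subunit protein, to 24.0% for Rpl36, and Rpl36 alone exceeded 20%.

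Together the 81 genes took a large part of all FPKM. Their sum was 11.8, 11.5, 11.7 and 12.6% of the library in COM, 12.8, 11.6, 12.1 and 12.5% in KO, 12.8, 12.4, 12.3 and 12.5% in WT, 11.4, 12.8 and 12.6% in DSS and 11.3, 13.02 and 9.004% in Control. The means were 11.9 ± 0.491% in COM, 12.3 ± 0.507% in KO, 12.5 ± 0.225% in WT, 12.2 ± 0.722% in DSS and 11.1 ± 2.02% in Control (SD). Both the highest and the lowest share of the 18 libraries were Control libraries, and the ranges of all 5 groups overlapped. In bulk tissue, fewer cells of a type rich in ribosomes and less of these messengers per cell cannot be told apart.

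**Figure D2:**
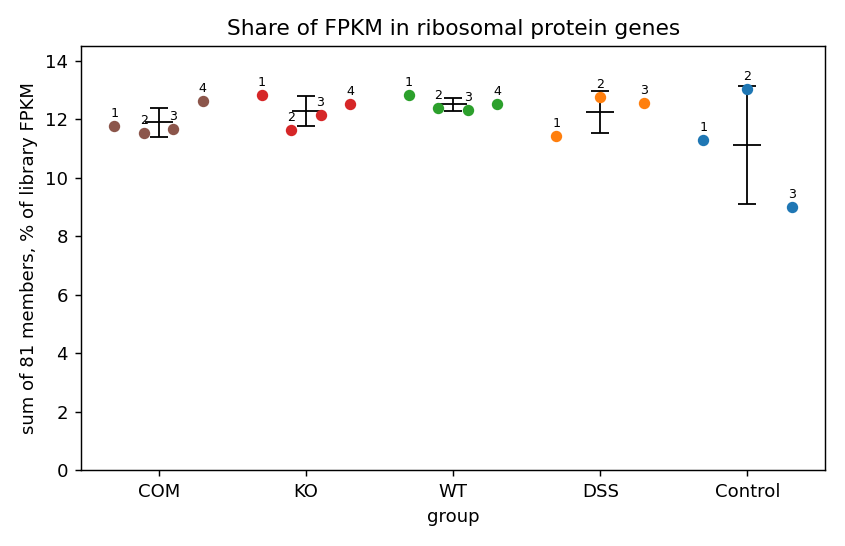
Sum of the 81 ribosomal protein genes as a percent of library FPKM, per library (points, numbered by replicate), with group mean and SD. The WT libraries lie between 12.3 and 12.8%, whereas the 3 Control libraries spread from 9.004 to 13.02%.

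The Control libraries spread far more than the others. The median SD of the 78 genes on the log2(FPKM + 1) scale was 0.08 in COM, 0.08 in KO, 0.05 in WT, 0.07 in DSS and 0.32 in Control, while for all genes tested it was 0.10 to 0.13 in the mice given DSS and 0.18 in Control. Control 3 was the lowest of all 18 libraries for 69 of 78 ribosomal protein genes (88.5%), against 30.4% of all genes, and Control 2 the highest for 47 (60.3%), against 8.93% of all genes. Each of the 78 genes was higher in Control 2 than in Control 3, by 1.05- to 1.98-fold with a median of 1.55-fold. Rplp0, the scaffold of the stalk that recruits translation factors, stood at 1132, 1324 and 776 FPKM in the Control libraries, and Rpl3, which reaches into the catalytic centre, at 533, 566 and 353 FPKM. The 9 genes not lowest in Control 3 were Rpl27, Rpl36, Rpl36al, Rpl38, Rpl41, Rplp2, Rps27l, Rps28 and Rps29.

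Other messengers of the translation machinery shared the low level of Control 3, and those of mitochondria did not. Of 21 other TOP messengers (translation factors and others), 19 were lowest in Control 3, and of 32 ribosome biogenesis factors 21 were. Of 78 mitochondrial ribosomal protein genes 4 were lowest there, and of 54 nuclear-encoded subunits of the respiratory chain 0. Fau, whose product is fused to a ubiquitin-like protein, stood at 926, 1283 and 1029 FPKM in the Control libraries.

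Control 3 also stood apart in markers of cell types and of gut position. The 10 B cell markers, all above 0, summed to 3.53 FPKM in Control 3 and to 38.8 to 160.4 FPKM in the other 17 libraries. The 7 plasma cell markers summed to 245 FPKM there, against 451 to 1248 elsewhere, and the 10 macrophage markers to 103 FPKM, against 259.7 to 631. The 10 Hox genes of the distal gut, a sign of where along the intestine tissue was taken, summed to 25.4 FPKM, with Hoxd12 and Hoxd13 at 0, against 138 to 544 elsewhere. Its 10 colonic epithelium markers summed to 22756 FPKM, against 5429 to 10658, and its 10 adipocyte markers to 416 FPKM, against 58.4 to 338. A sum is weighted towards the most abundant markers. In the mean of log2(FPKM + 1) Control 3 was also highest, but closer to the next library. The epithelial mean was 8.75 in Control 3 and 8.44 in KO 2, and the adipocyte mean 4.43 in Control 3 and 4.25 in COM 2. Epithelial markers were present in every library. Markers of pancreatic acinar cells averaged 8.75 in KO 3, 10.29 in DSS 1 and 7.95 in DSS 3 on the log2(FPKM + 1) scale, whereas no other library exceeded 1.21. The part of these markers in the level of ribosomal protein genes was not tested.

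**Figure D3:**
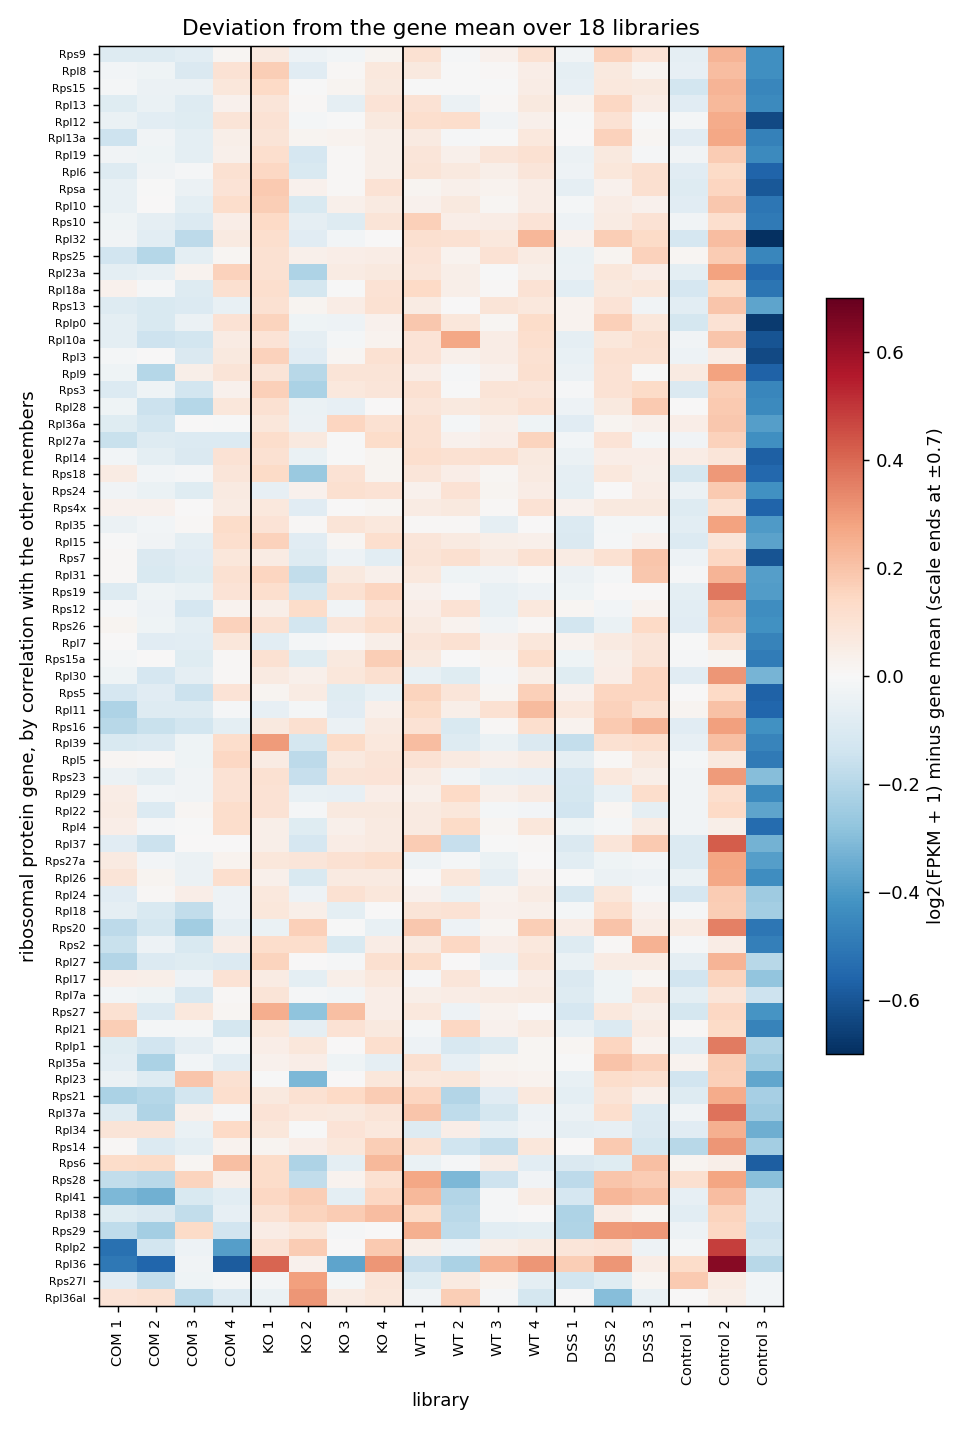
Deviation of log2(FPKM + 1) from the gene mean over 18 libraries (colour, scale from -0.7 to 0.7) for 75 of the 78 tested genes (ordered top to bottom by their correlation with the mean of the other members) in each library (grouped as COM, KO, WT, DSS and Control). Of all 78, Control 3 is the lowest library for 69 genes and Control 2 the highest for 47, and Rpl36 and Rplp2 at the lower end stand out in some COM libraries.

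Across the 18 libraries most of the genes moved together, in part through Control 2 and Control 3. The correlation of a gene with the mean of the other members (Pearson's r of log2 levels) had a median of 0.88, lay above 0.8 for 58 genes and below 0.5 for 5. Rps9, Rpl8 and Rps15 followed the others most closely (r of 0.97, 0.96 and 0.96), and Rpl36 (0.43), Rps27l (0.07) and Rpl36al (-0.11) least. These points share library and depth, and without Control 2 and Control 3, the libraries farthest from the median, the median r was 0.66. There Rps9, Rpl8 and Rps15 stayed close to the others (0.88, 0.84 and 0.79). Other genes departed from them: r fell from 0.69 to -0.09 for Rpl34, from 0.67 to 0.14 for Rps6 and from 0.83 to 0.28 for Rps27a. The low count of genes below 0.5 thus holds only with these Control libraries included. Rps27l, a paralog of Rps27 that is known as a p53 target, stood at 126, 119, 131 and 133 FPKM in COM libraries, 132, 164, 133 and 142 in KO libraries, 126, 139.7, 136 and 127 in WT libraries, 122, 126 and 135 in DSS libraries, and 152, 139 and 132 in Control libraries. Rpl36al, a paralog of the X-linked Rpl36a, stood at 370.2, 373, 303 and 324 FPKM in COM libraries, 335, 428, 359.9 and 366 in KO libraries, 339.9, 390.2, 344 and 318 in WT libraries, 347, 281 and 334 in DSS libraries, and 347, 357 and 341 in Control libraries. Both genes were highest in KO 2, at 164 FPKM for Rps27l and 428 FPKM for Rpl36al, and neither was lowest in Control 3.

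The first question was whether the colon of mice given DSS differed from that of Control mice in ribosomal protein messengers. In DSS against Control, 0 of 78 genes passed the test (limma on log2(FPKM + 1) with Benjamini-Hochberg adjusted p under 0.05 over 13263 genes; 2 genes at an unadjusted p under 0.05), although 16.9% of all genes tested passed. An unadjusted p under 0.05 in limma was reached by 4370 of all 13263 genes. The median log2 fold change was 0.12, against 0.05 for all genes tested, with 71 values above 0 and 7 below, and the single values ran from -0.14 to 0.34. As the genes were correlated over libraries, such counts of signs, here and below, do not stand for independent genes. The share of all genes with each sign is not given here. The large subunit had a median of 0.10 and the small subunit of 0.14. The 95% interval of the difference lay within 1.5-fold in either direction for 76 of 78 genes. The fit took a common spread for all 5 groups, although the median SD was 0.32 in Control and 0.07 in DSS. Against Control the intervals may therefore be too narrow and the p-values too small. In no gene were the libraries of both groups apart, against 19.4% of all genes apart in the higher direction and 10.6% in the lower. On quantile-normalized values 4 were apart as higher (13.1% of all genes), and with the length and GC trend removed 3 as lower (20.1%).

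The 3 genes with the smallest p overlapped between the groups. Rplp0 stood at 1253, 1384 and 1306 FPKM in DSS libraries, against 1132, 1324 and 776 in Control libraries, a log2 fold change of 0.32 ± 0.14 (SE; adjusted p = 0.125). Rps7, a small-subunit protein known to bind Mdm2, stood at 937, 972 and 1031 FPKM in DSS libraries, against 880.0, 997 and 594 in Control libraries, with 0.28 ± 0.13 (SE; adjusted p = 0.15). Rps4x, encoded on the X chromosome, stood at 1037, 1065 and 1067 FPKM in DSS libraries, against 955, 1093 and 690.0 in Control libraries, with 0.24 ± 0.12 (SE; adjusted p = 0.169). For these 3 genes Control 3 was the lowest of the 6 libraries and every DSS library and Control 2 lay above Control 1. Without Control 3 the median of the 78 genes was -0.05 and without Control 2 it was 0.26, where 17 genes passed as higher, so the sign of the median rested on 1 Control library. The share of all genes passing without Control 2 is not given here.

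WT, KO and COM share their Control libraries with that comparison, and their values are given side by side for this reason. In WT against Control 0 of 78 genes passed with limma (6 at an unadjusted p under 0.05), against 23.1% of all genes, and the median was 0.13 (0.05 over all genes). In KO against Control 0 passed (1 at an unadjusted p under 0.05), against 5.14% of all genes (3.69% higher), with a median of 0.13 (0.03). In COM against Control 0 passed (3 at an unadjusted p under 0.05), against 7.6% of all genes (5.26% higher and 2.34% lower), with a median of 0.07 (0.03). Of all 13263 genes, 4928 in WT, 2805 in KO and 3256 in COM had an unadjusted p under 0.05 in limma. Values above 0 numbered 67 of 78 in WT, 76 in KO and 55 in COM. Without Control 3 the medians were -0.03 in WT, -0.04 in KO and -0.10 in COM, all below 0, and without Control 2 they were 0.29, 0.28 and 0.22 in the same order, with 34, 4 and 0 genes passing as higher. The share of all genes passing without Control 2 is not given here, so these counts are not compared with it. On the deposited scale, in no gene did WT, KO or COM libraries stand apart from all Control libraries; of all genes 17.1% did so as higher and 10.5% as lower in WT, 8.07% and 5.07% in KO, and 10.8% and 5.87% in COM. These counts depended on the scaling. On quantile-normalized values 34 of 78 genes stood apart as higher in WT (13.3% of all genes), 3 in KO (5.98%) and 13 in COM (6.98%), and 1 as lower in COM (9.38%). In TPM 16 stood apart as higher in WT (22.1% of all genes), 1 in KO (9.84%) and 4 in COM (15.5%). With the length and GC trend removed, none stood apart as higher, and 1 in WT (16.4%) and 2 in COM (10.1%) as lower.

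In WT against Control the smallest p belonged to Rplp0, Rpl3 and Rpl4. Rplp0 stood at 1406, 1306, 1246 and 1348 FPKM in WT libraries, against 1132, 1324 and 776 in Control libraries, a log2 fold change of 0.33 ± 0.13 (SE; adjusted p = 0.0772). Rpl3 averaged 576 ± 13.5 FPKM in WT and 484 ± 115 FPKM in Control (SD), with 0.28 ± 0.12 (SE; adjusted p = 0.105). Rpl4, which lines the exit tunnel for the growing chain, averaged 1140.4 ± 37.9 FPKM in WT and 977 ± 201 FPKM in Control, with 0.24 ± 0.11 (SE; adjusted p = 0.107). The Control SDs were several times those of WT. In KO against Control the smallest p belonged to Rps15a at 0.23 ± 0.10 (SE; adjusted p = 0.189), Rpl3 at 0.26 ± 0.12 (SE; adjusted p = 0.239) and Rpsa at 0.26 ± 0.12 (SE; adjusted p = 0.239). Rpsa, a small-subunit protein also known as the laminin receptor precursor, averaged 797 ± 43.9 FPKM in KO and 681 ± 170.5 FPKM in Control. In all of these the libraries of both groups overlapped.

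COM against Control had its smallest p in genes with lower values in COM. Rplp2, which forms the stalk with Rplp1 and Rplp0, had a log2 fold change of -0.39 ± 0.13 (SE; adjusted p = 0.0806), and Rpl36, a protein at the surface of the large subunit, of -0.61 ± 0.21 (SE; adjusted p = 0.0944). Rps6 had a value above 0, at 0.30 ± 0.13 (SE; adjusted p = 0.187), with 35.4, 35.7, 32.7 and 37.6 FPKM in COM libraries, against 32.8, 33.3 and 21.4 in Control libraries. For Rplp2, Control 2 was high at 1022 FPKM and Control 3, at 672 FPKM, lay within the COM range. Without Control 3, Rpl36, Rplp2 and Rps20 passed as lower in COM, and without Control 1, Rplp2 did.

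**Figure D4:**
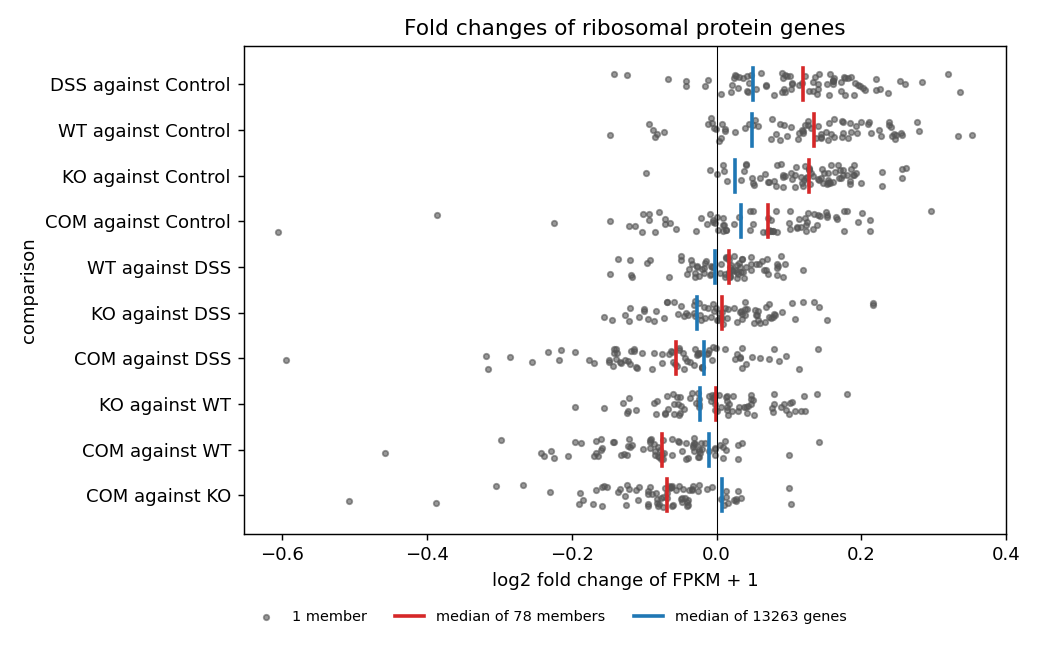
Fitted log2 fold change of FPKM + 1 (horizontal axis) of the 78 tested ribosomal protein genes (grey points) in the 10 comparisons, with their median (red line) and that of 13263 genes (blue line). The medians lie between -0.08 and 0.13, and Rpl36 is the lowest point in all comparisons of COM.

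The second question was whether feeding a strain after DSS changed these messengers relative to DSS alone. In WT against DSS 0 of 78 genes passed with limma (0 at an unadjusted p under 0.05), against 0% of all genes, and in KO against DSS 0 passed (2 at an unadjusted p under 0.05), against 0.166% (0.0679% lower). In COM against DSS 0 passed (5 at an unadjusted p under 0.05), against 0.0151% of all genes. Of all 13263 genes, 633 in WT, 2160 in KO and 1461 in COM had an unadjusted p under 0.05 in limma. The median log2 fold change was 0.02 in WT, 0.01 in KO and -0.06 in COM, against -0.0027, -0.03 and -0.02 over all genes in the same order. The 95% interval lay within 1.5-fold for 77, 78 and 76 of 78 genes in WT, KO and COM. The common spread includes the Control libraries, so in comparisons without Control the intervals may be too wide and the p-values too large.

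In WT, the libraries stood apart from DSS as higher for genes that include Rpl14 and Rpl15 and as lower for Rplp1, that is 3 of 78 against 4.48% of all genes as higher and 1 against 6.01% as lower. Rplp1 stood at 1276, 1210.2, 1229 and 1321 FPKM in WT libraries, against 1322, 1452 and 1330.3 in DSS libraries, with -0.12 ± 0.10 (SE; adjusted p = 0.9996). Rps29, a small zinc-binding protein of the small subunit, had -0.15 ± 0.13 (SE; adjusted p = 0.9996), and Rpl36al had 0.12 ± 0.10 (SE; adjusted p = 0.9996). DSS 1 was low for Rps29, at 184 FPKM, while DSS 2 and DSS 3 lay at 261.5 and 261.9 FPKM.

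In KO, Rpl38 had the smallest p. This large-subunit protein is known in mice for its part in the translation of Hox messengers. It stood at 1256, 1301, 1317 and 1354 FPKM in KO libraries, against 1002, 1207 and 1175 in DSS libraries, a log2 fold change of 0.22 ± 0.09 (SE; adjusted p = 0.253). The lowest KO library lay above the highest DSS library, and the 4 KO libraries were close to each other. Rpl36al had 0.22 ± 0.10 (SE; adjusted p = 0.304) and Rps27l 0.15 ± 0.08 (SE; adjusted p = 0.33), both with overlapping libraries. Rps27a, which is made as a fusion with ubiquitin, stood at 582, 583, 594 and 600.3 FPKM in KO libraries, against 523, 538 and 542 in DSS libraries, with 0.14 ± 0.10 (SE; adjusted p = 0.514) and no overlap. In all, 4 genes (Rpl34, Rpl35, Rpl38 and Rps27a) stood apart as higher, against 7.68% of all genes, and 2 (Rps7 and Rpl11) as lower, against 11.6%. The 4 and 2 of 78 genes do not exceed those shares.

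In COM, the values leaned downward. Of 78 genes, 62 had a log2 fold change below 0 against DSS, where the median over all genes was also below 0 (-0.02). In 12 genes all COM libraries lay below all DSS libraries, against 9% of all genes. Among these were Rpl11, Rpl18, Rpl27, Rpl27a, Rpl35a, Rpl36, Rplp1, Rplp2, Rps13, Rps16 and Rps20. Rpl34 alone stood apart as higher, against 6.67% of all genes. On quantile-normalized values 4 genes stood apart as lower, against 7.17% of all genes, after rescaling to TPM, which gives each library the same total, 6 did, against 6.83%, and with the length and GC trend removed 4 did, against 6.63%. On these 3 scales the count is near or below the share of all genes. Rpl36 stood at 255, 247, 357 and 242 FPKM in COM libraries, against 409, 449 and 376 in DSS libraries, with -0.59 ± 0.21 (SE; adjusted p = 0.332). COM 3 was the highest of the COM libraries and still below the lowest DSS library. Rpl41, the smallest of the ribosomal proteins, stood at 674, 666, 779 and 799 FPKM in COM libraries, against 775, 986 and 972 in DSS libraries, with -0.32 ± 0.12 (SE; adjusted p = 0.357), and Rpl35a at 301, 272, 312 and 301 FPKM in COM libraries, against 316, 365 and 354 in DSS libraries, with -0.22 ± 0.09 (SE; adjusted p = 0.377). For Rpl41, DSS 1 lay within the COM range, and for Rpl35a the groups did not overlap. Rpl11, which with Rpl5 and 5S RNA is known to bind Mdm2, stood at 687, 748, 749.8 and 793 FPKM in COM libraries, against 839, 893 and 863 in DSS libraries, with -0.22 ± 0.13 (SE; adjusted p = 0.537).

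The third question was whether the strains differed from each other. In KO against WT 0 of 78 genes passed with limma (1 at an unadjusted p under 0.05), against 0.829% of all genes (0.505% lower). In COM against WT 0 passed (3 at an unadjusted p under 0.05), against 0.00754% of all genes, and in COM against KO 0 passed (7 at an unadjusted p under 0.05), against 0.0302% (0.0226% higher). An unadjusted p under 0.05 in limma was reached by 2672 of all 13263 genes in KO against WT. It was reached by 1481 in COM against WT and by 1431 in COM against KO. The median log2 fold change was -0.00032 in KO against WT, -0.075 in COM against WT and -0.07 in COM against KO, and over all genes it was -0.02, -0.01 and 0.01.

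The COM mean lay lowest among the 4 groups of mice given DSS for most ribosomal protein genes, but COM 4 did not share the low level. The median deviation from the gene means over 18 libraries was 0.05 in COM 4. It was -0.04, -0.07 and -0.07 in COM 1, COM 2 and COM 3. In COM 4, 22 of 78 genes lay below their own mean, against 58, 67 and 64 in COM 1, COM 2 and COM 3. The COM mean was the lowest of COM, KO, WT and DSS for 56 of 78 genes (71.8%), against 23.8% of all genes. KO, WT and DSS were lowest for 5, 3 and 14, against 33.8%, 22.7% and 19.7% of all genes. In TPM the COM mean was lowest for 48 genes (61.5%, against 19.8% of all genes). On quantile-normalized values it was lowest for 26 (33.3%, against 23.4%), fewer than the 28 for which KO was lowest (35.9%, against 29.4%). In COM against WT, 68 of 78 values were below 0, and in COM against KO 66 were. The median over all genes was -0.01 in COM against WT and 0.01 in COM against KO. All COM libraries lay below all WT libraries for 14 genes, against 5.69% of all genes, and below all KO libraries for 14 genes, against 3.34%. None stood apart as higher, against 4.69% and 4% of all genes. Rplp2, Rpl27, Rpl27a, Rps13, Rps20 and Rps25 were among both 14. On quantile-normalized values 11 genes stood apart as lower against WT (5.57% of all genes) and 1 against KO (3.61%), in TPM 12 (5.06%) and 7 (2.34%), and with the length and GC trend removed 5 (5.6%) and 8 (2.91%). With quantile normalization the count against KO was thus below the share of all genes, and the median of COM against KO was 0.015, above 0, on that scale.

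Markers of several cell types also differed between COM and some groups. The 7 plasma cell markers summed to 571 to 713 FPKM in COM, 451 to 909.9 in KO, 776 to 1248 in WT, 873 to 1041 in DSS and 245 to 636 in Control. The 10 macrophage markers summed to 345 to 497 FPKM in COM, 259.7 to 457 in KO, 494 to 579.9 in WT, 551 to 631 in DSS and 103 to 338 in Control, and the 10 B cell markers to 50.6 to 113 FPKM in COM, 48.9 to 123 in KO, 38.8 to 106 in WT, 127 to 160.4 in DSS and 3.53 to 105 in Control. The COM libraries thus lay below all WT and DSS libraries in plasma cell markers and below all DSS libraries in B cell and macrophage markers, and overlapped the KO libraries in each. The 7 T cell markers summed to 19.1 to 34.9 FPKM in COM, 13.9 to 24.4 in KO, 20.2 to 37.7 in WT, 29.6 to 34.1 in DSS and 10.4 to 18.2 in Control, where COM overlapped KO, WT and DSS. The 10 colonic epithelium markers summed to 6560 to 10658 FPKM in COM, 6795 to 9033 in KO, 5848 to 6782 in WT, 5429 to 5896 in DSS and 6741 to 22756 in Control. In this sum every COM library lay above every DSS library, and COM overlapped KO, WT and Control. In the mean of log2(FPKM + 1) over these markers COM and DSS overlapped, as COM 3 (7.847) lay below DSS 1 (7.861) and DSS 3 (7.851). No marker of these lists was at 0 throughout a group. The 16 proliferation markers summed to 323 to 403 FPKM in COM, 328 to 405 in KO, 379 to 476 in WT, 339.7 to 377 in DSS and 256 to 476 in Control, where COM overlapped each group. The part of these cells in the COM levels of ribosomal protein genes was not tested.

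The stalk gene Rplp2 had the smallest p in both comparisons of COM with a strain. It stood at 508, 668, 712 and 558 FPKM in COM libraries, 785, 828, 733 and 830.2 in KO libraries, 752, 714, 752 and 765 in WT libraries, 774, 782 and 714 in DSS libraries, and 725, 1022 and 672 in Control libraries. COM 1 and COM 4 were the lowest of the 18 libraries, and COM 3 lay just under the lowest WT library. The log2 fold change was -0.39 ± 0.12 (SE; adjusted p = 0.265) in COM against KO, -0.30 ± 0.12 (SE; adjusted p = 0.396) in COM against WT and -0.32 ± 0.13 (SE; adjusted p = 0.389) in COM against DSS. The other stalk genes differed less. Rplp1 stood at 1232, 1191, 1252 and 1293 FPKM in COM libraries, 1352, 1381, 1309 and 1418 in KO libraries, and 1276, 1210.2, 1229 and 1321 in WT libraries, with -0.14 ± 0.10 (SE; adjusted p = 0.651) in COM against KO and -0.02 ± 0.10 (SE; adjusted p = 0.953) in COM against WT. Rplp0 had -0.06 ± 0.12 (SE; adjusted p = 0.897) in COM against KO. Whether Rplp2 differed from Rplp0 and Rplp1 in its change was not tested.

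Rpl36 varied most of all and was low in 3 of 4 COM libraries. It stood at 255, 247, 357 and 242 FPKM in COM libraries, 480.0, 369.6, 281 and 448 in KO libraries, and 324, 310.5, 429.7 and 449 in WT libraries. KO 3, WT 1 and WT 2 reached down into the COM range, so that neither strain was apart from COM. The log2 fold change was -0.51 ± 0.20 (SE; adjusted p = 0.37) in COM against KO and -0.46 ± 0.20 (SE; adjusted p = 0.417) in COM against WT. Rpl38 stood at 1099.8, 1088, 1034 and 1121 FPKM in COM libraries, against 1256, 1301, 1317 and 1354 in KO libraries, with -0.27 ± 0.08 (SE; adjusted p = 0.266) and no overlap. It had the smallest p in KO against WT too, at 0.18 ± 0.08 (SE; adjusted p = 0.24), where the groups overlapped. Rpl41 stood at 674, 666, 779 and 799 FPKM in COM libraries, against 927, 946, 799.7 and 927 in KO libraries, with -0.30 ± 0.11 (SE; adjusted p = 0.348), and KO 3 lay just above the highest COM library.

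**Figure D5:**
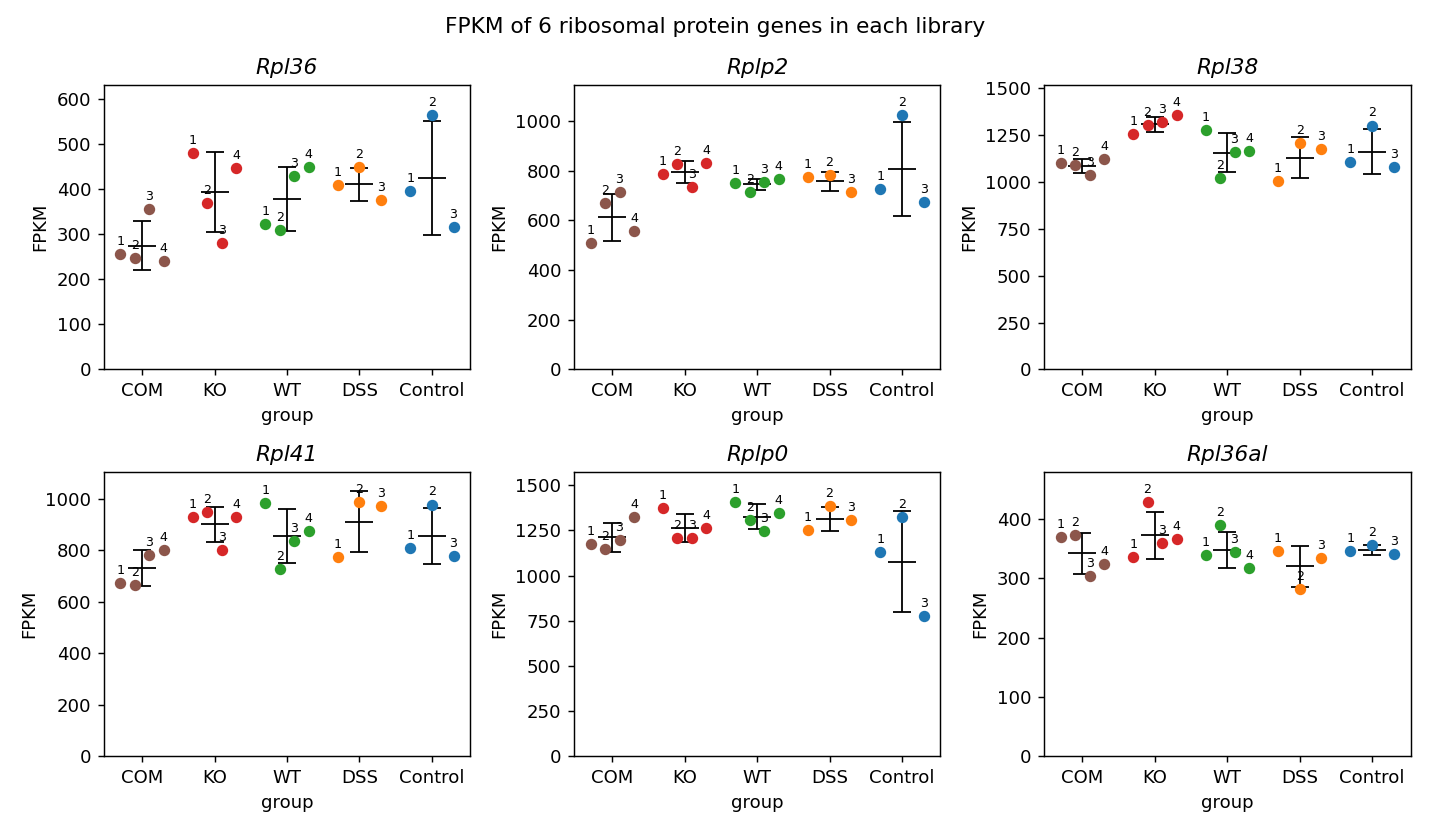
FPKM of 6 ribosomal protein genes in each library (points, numbered by replicate), with group mean and SD. Rplp2 is low in COM libraries, and Rpl36 is low in COM libraries other than COM 3. The 4 KO libraries of Rpl38 sit between 1256 and 1354 FPKM above all COM and DSS libraries. Rplp0 is lowest in Control 3 at 776 FPKM, and Rpl36al is highest in KO 2.

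In KO against WT, Rps27l had a log2 fold change of 0.10 ± 0.07 (SE; adjusted p = 0.423). There Rpl35 and Rps27a stood apart as higher, against 7.83% of all genes, and 3 genes that include Rps7 and Rpl11 as lower, against 9.4%. On quantile-normalized values 11 stood apart as lower, against 8.28% of all genes. Rpl22l1, the paralog of Rpl22 that lies outside the naming rule, stood at 74.9, 89.9, 74.2 and 76.2 FPKM in KO libraries, against 59.5, 56.8, 55.8 and 57.5 in WT libraries, with no overlap and 0.45 ± 0.10 (SE; adjusted p = 0.0534). It came closest to the threshold in this comparison among the ribosomal protein paralogs examined (Rpl22l1, Rpl7l1, Rpl36al and Rps27l).

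Lists of related genes, chosen like the members with results of these data known, show what moved around the ribosomal protein genes. Among 21 other TOP messengers, 2 rose in DSS against Control (Pabpc1 and Nap1l1), 6 in WT against Control (Pabpc1, Npm1, Nap1l1, Eef1a1, Eif3e and Eif2s3x), 0 in KO (3 at an unadjusted p under 0.05 with limma) and 1 in COM (Pabpc1). None fell. Of all genes, 11.6% rose and 5.31% fell in DSS, 14.7% rose and 8.35% fell in WT, 3.69% rose and 1.46% fell in KO, and 5.26% rose and 2.34% fell in COM. An unadjusted p under 0.05 in limma was reached by 2805 of 13263 genes in KO and by 3256 in COM. The list's median log2 fold change was 0.22 in DSS, 0.21 in WT, 0.13 in KO and 0.17 in COM. Pabpc1, the poly(A)-binding protein, stood at 439, 453, 451 and 496 FPKM in COM libraries, 486, 424, 419.9 and 456 in KO libraries, 553, 536, 528 and 462 in WT libraries, 439.7, 511 and 535 in DSS libraries, and 411, 363 and 319.7 in Control libraries. Every library of mice given DSS lay above every Control library, and the log2 fold change was 0.45 ± 0.10 (SE; adjusted p = 0.00921) in DSS, 0.52 ± 0.09 (SE; adjusted p = 0.00205) in WT, 0.34 ± 0.09 (SE; adjusted p = 0.0402) in COM and 0.30 ± 0.09 (SE; adjusted p = 0.0832) in KO. Without Control 3, 1 of the 21 passed in DSS and 1 in WT, Pabpc1 in both, and 0 in KO and COM (1 and 4 at an unadjusted p under 0.05 with limma). Without Control 2, 7 passed in DSS, 9 in WT and 1 in COM, which was Eif3e, so the call of Pabpc1 in COM was lost without either library. For refits that leave out libraries, here and in the lists below, the share of all genes passing is not given. Those counts are therefore not compared with it.

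Ribosome biogenesis factors, which process ribosomal RNA and assemble the subunits, passed mostly in WT. Of 32, 7 rose in WT against Control (Heatr1, Ncl, Dkc1, Ddx21, Tsr1, Noc2l and Nat10) and 1 fell (Sbds), against 14.7% of all genes rising and 8.35% falling. Heatr1, needed for the early pre-rRNA, averaged 6.67 ± 1.28 FPKM in WT and 4.06 ± 0.786 FPKM in Control (SD), with 0.60 ± 0.15 (SE; adjusted p = 0.0101). Sbds, which helps release eIF6 from the large subunit, averaged 74.4 ± 4.07 FPKM in WT and 103 ± 15.0 FPKM in Control, with -0.45 ± 0.10 (SE; adjusted p = 0.0065). In DSS against Control Heatr1 rose and Sbds fell, and 0 factors passed in KO or COM (1 and 2 at an unadjusted p under 0.05 with limma). Without Control 3, Sbds alone passed in WT, and it passed as lower in DSS and KO too. Without Control 2, 0 factors passed in DSS (8 at an unadjusted p under 0.05 with limma). Of 14 genes of RNA polymerase I and its factors, 1 rose in WT against Control (Polr1a, its largest subunit), against 14.7% of all genes, at 0.44 ± 0.13 (SE; adjusted p = 0.0228), and it did not pass without Control 3. The count of 1 in 14 is below the share of all genes.

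The mTORC1 pathway controls TOP messengers. Of its 17 genes, 4 passed in DSS against Control, where 16.9% of all genes did. Tsc1 and Deptor, which restrain the pathway, rose, and Rheb, its activator, and Rps6kb2, an S6 kinase, fell. Rheb averaged 40.8 ± 0.788 FPKM in DSS and 48.9 ± 3.32 FPKM in Control, with -0.25 ± 0.05 (SE; adjusted p = 0.00622). In WT against Control Tsc1 rose and Rheb and Rps6kb2 fell (3 of 17, against 23.1% of all genes), in KO Rheb fell, and in COM 0 passed (6 at an unadjusted p under 0.05 with limma). Without Control 3, 5 passed in DSS: Eif4ebp1 and Eif4ebp2, which hold back cap-dependent translation, as higher, and Max, Rheb and Rps6kb2 as lower, while Tsc1 and Deptor did not. There Eif4ebp1, Eif4ebp2 and Rps6kb2 passed in WT, Eif4ebp1 in KO and Eif4ebp2 in COM, and Rheb no longer passed in WT or KO. Without Control 2, Rheb alone passed in DSS, WT and KO. Of 13 tested genes of ribosome stress and p53, Ddit3, a stress transcription factor, fell in DSS, WT, KO and COM against Control, with -0.61 ± 0.08 (SE; adjusted p = 0.00185) in KO, while Eif2ak3, a kinase that senses unfolded protein, rose in DSS, WT and COM and Ccng1, a p53 target, rose in WT. The 2 of 13 in DSS and 3 of 13 in WT are near the 16.9% and 23.1% of all genes that passed. Without Control 3, Ddit3 passed in all 4 comparisons, and Eif2ak3 and Sesn2 in COM alone; without Control 2, Ddit3 alone passed in each. Without Control 3, DSS 3 and KO 2 together, Ddit3 did not pass in DSS.

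Some messengers of mitochondria passed as lower against Control, mostly in DSS, WT and COM, where those of the cytosolic ribosome did not pass. Of 54 nuclear-encoded subunits of the respiratory chain, 35 fell in DSS, 42 in WT, 0 in KO (22 at an unadjusted p under 0.05 with limma) and 30 in COM, and no subunit rose. Of all genes 5.31% fell in DSS, 8.35% in WT, 1.46% in KO and 2.34% in COM. Their median log2 fold change was -0.34 in DSS, -0.36 in WT, -0.18 in KO and -0.32 in COM. Cox4i1, a subunit of cytochrome c oxidase, averaged 589 ± 6.98 FPKM in DSS and 859 ± 173 FPKM in Control, with -0.52 ± 0.11 (SE; adjusted p = 0.00573). Without Control 3 28 passed in DSS, 35 in WT and 25 in COM, and without Control 2 20, 28 and 10. Of 78 mitochondrial ribosomal protein genes, 13 fell in DSS, 12 in WT, 2 in KO and 13 in COM, and no gene rose. Without Control 2, 6, 7, 0 and 1 passed in the same order, and without Control 3, 12, 9, 1 and 9. The share of all genes passing in these refits is not given here. With all libraries the median log2 fold change of this list was -0.16, -0.10, -0.06 and -0.14 in the same order. The medians of the cytosolic genes, 0.12, 0.13, 0.13 and 0.07, were of similar size, and those genes spread widely in Control. Mrpl2 averaged 25.8 ± 0.604 FPKM in DSS and 33.2 ± 1.23 FPKM in Control, with -0.35 ± 0.05 (SE; adjusted p = 0.000994). Among the strains and DSS, Mrpl2 rose in KO against DSS, at 0.28 ± 0.05 (SE; adjusted p = 0.0399), and Uqcr11 in KO against WT, at 0.35 ± 0.08 (SE; adjusted p = 0.048), and no other gene of these 2 lists passed. KO 2 was the highest KO library in both lists. Its median deviation from the gene means was 0.18 for mitochondrial ribosomal genes, against -0.06 to 0.03 in the other KO libraries. For respiratory chain subunits it was 0.23, against -0.05 to 0.08. Whether these 2 calls rest on KO 2 is not given here. Whether the mitochondrial and the cytosolic lists differed in their change was not tested.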

How the data were processed

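Bulk RNA sequencing of 18 colon libraries in 5 groups was run on the DNBSEQ platform, according to the extraction protocol. The values are FPKM as deposited by the authors, in 1 table of 18349 genes keyed by NCBI gene identifiers. The build is mm10 per the submitters' processing notes; for the aligner, quantification program and annotation, no name is given in the sources used here. Groups come from the titles. The number of reads is unknown, so no counting interval is given. Library totals were 517933 to 558590 FPKM.

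FPKM is not a count, and no test for counts was used. The RefSeq table of GRCm38.p6 gave symbols for 18230 identifiers and none for 119. Levels were taken as log2(FPKM + 1), which understates the fold changes of low genes. The filter required 1 FPKM or more in 3 or more libraries and left 13263 genes. A model with a mean for each group was fitted to all 18 libraries with limma 3.58.1 in R 4.3.3, using empirical Bayes variances that follow a trend on the mean. The spread of a gene was common to all groups, although Control libraries spread more than the others. Each of 10 comparisons had a two-sided test, and a gene passed at a Benjamini-Hochberg adjusted p under 0.05 over all genes tested. The fit was tested on simulated data.

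The genes named were the 3 with the smallest p in each comparison, the 5 highest and 5 lowest by mean, the stalk, ubiquitin-fused and paralog genes, and the 3 most and 3 least correlated with the rest; from each further list up to 4 genes per comparison were eligible. Rps6-ps4, Rps20, Rpl7a, Rpl11, the genes whose groups did not overlap, and further list genes given to complete a count were named after their values were seen. The members, lists and tests were chosen with earlier results of these data known.

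Settings varied one at a time were the pseudocount (0.1), the filter (none, leaving 18231 genes, or 5 FPKM, leaving 9854), the scaling (quantile normalization or TPM), the libraries fitted (only the 2 groups compared, or all but 1), a block for replicate number, and a correction for transcript length and GC content (13117 genes). Leaving out libraries that stood apart in acinar, squamous or Hox markers, and overlap counts on other scales, were added after seeing the data. A few members are not reported by name here and are not drawn in the figures of single genes; they stayed in every fit, count and median.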

Additional observations from a re-analysis of the deposited data

Results flagged for a closer look

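Of 89 groups of 4 libraries examined for the named genes, 7 held 1 library far from the other 3, and chance alone would give about 1 in 20. Rpl36 in COM 3 stood at 356.64 FPKM, above the other COM libraries at 255, 247 and 242 FPKM. Rps9 in COM 4 stood at 974.41 FPKM, above 909, 906 and 918 FPKM. Rpl41 in KO 3 stood at 799.66 FPKM, below 927, 946 and 927 FPKM in the other KO libraries. Rps26 in KO 2 stood at 1947.16 FPKM, below 2290, 2258 and 2314 FPKM. Rps15 in WT 4 stood at 1472.74 FPKM, above 1418, 1417 and 1415 FPKM. The other two lie at the floor of the table: Rpl3l in COM 1 stood at 0.06 FPKM with 0 in the other COM libraries, and Rpl32l in COM 1 stood at 0 FPKM with 0.15 in the other COM libraries.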

How the results depend on the processing

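The direction of the medians against Control and the counts of genes passing depended on single Control libraries. With each library left out in turn, the count of ribosomal protein genes that passed ran from 0 to 17 in DSS against Control, from 0 to 34 in WT against Control, from 0 to 4 in KO against Control and from 0 to 3 in COM against Control. The highest counts came without Control 2, all higher, except that of COM, which came without Control 3 (Rpl36, Rplp2 and Rps20, lower). Without Control 1, 4 passed in WT against Control (Rpl3, Rpl4, Rpl14 and Rps15a) and 1 in COM against Control (Rplp2). In WT against Control 22 passed as higher with quantile normalization and 5 with rescaling to TPM. For these refits the share of all genes passing is not given here, so the counts show only that the result depends on the setting. In COM against Control 1 passed with quantile normalization (Rpl4, higher), 1 with the length and GC trend removed (Rplp2, lower) and 2 without the low-Hox libraries Control 3, DSS 3 and KO 2 (Rplp2 and Rps20, lower). With quantile normalization the median log2 fold change was 0.066 in WT against DSS, -0.060 in KO against WT and 0.015 in COM against KO. Rps29 in WT against DSS was 0.041, against -0.15 with all libraries, without the squamous-rich libraries DSS 2, WT 2, WT 4 and COM 3; the cause of these shifts was not tested. Every reported count was 0, and of the recomputed counts 166 stayed at 0 and 11 did not. Of the medians 174 moved by less than the spread between replicates. Against Control that spread was wide, with an SD of 0.31 between Control libraries. The changes of sign without Control 3 are therefore among the 174, which do not show that the direction was stable. Of the recomputed values of single genes, 20 passed only under an alternative. Over all genes, 361 passed in KO against Control and 557 in COM against Control with the block described next, against 682 and 1008 without it.

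Replicate numbers do not pair the libraries: of 33 pairs with the same number, 13 had deviations from the group means correlated above 0.1, with a range of -0.47 to 0.39. With the replicate number as a block, 0 ribosomal protein genes passed in limma in each of the 10 comparisons, and the median in DSS against Control was 0.12. The unknown read depth limits what low levels such as those of Rpl3l and Rpl32l can show.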

Other observations

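Of the ribosomal protein genes and paralogs outside the naming rule, 3 were looked at by library. Rps3a1, which encodes a small-subunit protein, averaged 1145 ± 59.8 FPKM in COM, 1199 ± 61.0 in KO, 1154 ± 24.0 in WT, 1168 ± 38.5 in DSS and 1092 ± 243 in Control (SD), with its lowest value, 854 FPKM, in Control 3. Fau averaged 991 ± 40.4 FPKM in COM, 1044 ± 30.8 in KO, 941 ± 32.6 in WT, 955 ± 25.9 in DSS and 1079 ± 184 in Control, and its lowest library was WT 3 at 918 FPKM. In KO against WT every KO library of Fau lay above every WT library, with a log2 fold change of 0.15 ± 0.08 (SE; adjusted p = 0.316) in limma. Rpl7l1 stood between 25.8 and 33.1 FPKM, with a log2 fold change of -0.03 ± 0.07 (SE; adjusted p = 0.833) in KO against WT.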
